A study of Mus musculus with 8 samples.

Results

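The hexane fraction (HF) of the mushroom Amauroderma rugosum was given to BV-2 cells together with lipopolysaccharide (LPS), and messenger RNA was compared with that of cells given LPS alone. The comparison rests on the 4 arrays whose titles carry these treatments, of 8 arrays in the series, with 2 arrays in the LPS group and 2 in the LPS+HF group. LPS was used at 1 µg/mL and HF at 100 µg/mL, both present together for 24 h. BV-2 is an immortalised mouse microglial line, so the cells are a single cultured line and not microglia taken from brain. The other 4 arrays hold untreated control cells (2 arrays) and cells with HF alone (2 arrays), and they are used only where stated. All groups share the same medium, which contained serum and insulin. The composition of HF is not given in the labels.

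LPS, from the outer membrane of Gram-negative bacteria, binds CD14 and the TLR4-MD-2 complex on microglia and macrophages. From there the adaptor MyD88 leads to NF-kB and to cytokine genes such as Tnf and Il6. The adaptor TRIF leads to IRF3, to interferon beta and, through the interferon receptor and factors such as STAT2 and IRF9, to a further set of genes, the interferon-stimulated genes. Many of these carry an interferon-stimulated response element (ISRE) near their start site.

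Total RNA was labelled with Cy3 and hybridised to single-colour Agilent arrays. All levels below are log2 of the processed spot signal minus the array's 75th percentile, and all differences are LPS+HF minus LPS on this log2 scale, with the standard error (SE) of the fit to the 4 arrays. The 75th percentile lay at 282 and 286 brightness units on the LPS arrays and at 527 and 455 on the LPS+HF arrays before scaling. Between 52.1% and 54.8% of probes were well above background on these arrays, and no spot was saturated. Replicate arrays differed with an SD over genes of 0.25 for LPS and 0.32 for LPS+HF, and of 1.00 for control and 0.50 for HF alone. Both LPS+HF arrays lay in slide row 2 and both LPS arrays in slide row 1, so row and HF cannot be told apart. The design calls the arrays biological duplicates, but whether they came from separate flasks is not stated, and the p-values may measure technical spread only. All 12 of 12 microglia and macrophage markers, Csf1r, Itgam and Adgre1 among them, were above background on all 4 arrays. Of these 12 markers, 6 passed as lower and 0 as higher, beside 19.0% and 17.3% over all genes. The summed level of the 12 markers, as log2, was 9.92 and 9.88 on the LPS arrays and 9.68 and 9.54 on the LPS+HF arrays. Markers of other cell types were above background on all 4 arrays for 5 of 7 oligodendrocyte, 3 of 6 endothelial, 3 of 5 T cell, 2 of 7 astrocyte, 2 of 7 neuron, 2 of 4 B cell, 1 of 6 fibroblast and 0 of 4 epithelial genes. The oligodendrocyte markers, the brightest of these lists, summed to 5.32 and 5.19 on the LPS arrays and to 4.387 and 4.396 on the LPS+HF arrays, with 1 passed as lower. The part of these genes in the results below was not tested.

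Of 21855 genes tested, 7938 (36.3%) passed an adjusted p of 0.05 in limma's moderated test, 3781 higher (17.3%) and 4157 lower (19.0%) with HF. At least a 2-fold difference was reached by 1450 of them (6.63%), 547 higher (2.50%) and 903 lower (4.13%). Among genes above background on all 4 arrays, the lower side held the larger differences: 112 were lower by at least 4-fold and 19 higher, and 27 were lower by at least 8-fold against 0 higher. With genes below background on some arrays included, whose fitted folds are not measured sizes, the numbers were 190 and 48, and 49 and 11. The median difference over all genes was -0.07. Scaling to the array median moved that median to 0.08 and the share of higher genes among those passed from 47.6% to 67.6% (5068 higher, 2433 lower). With the spread pooled over all 8 arrays, 694 genes (3.18%) passed as higher and 760 (3.48%) as lower. That spread takes in the control and HF arrays, whose replicates differed more than those of the 2 groups compared. A gene that did not pass with 8 arrays was thus held against a spread from outside the comparison. Leaving out LPS replicate 1 left 489 (2.24%) and 590 (2.70%), leaving out LPS replicate 2 left 778 (3.56%) and 814 (3.72%), and leaving out LPS+HF replicate 1 left 2335 and 2753. Without the filter on dim probes limma called 0 genes, with 10250 at an unadjusted p under 0.05. The counts of list members given below under a setting are to be read beside that setting's share over all genes. The arrays of the groups did not overlap for 16395 genes (75%), among them all 7938 that passed. As in any bulk RNA, fewer cells of a kind and less RNA per cell cannot be told apart.

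**Figure D1:**
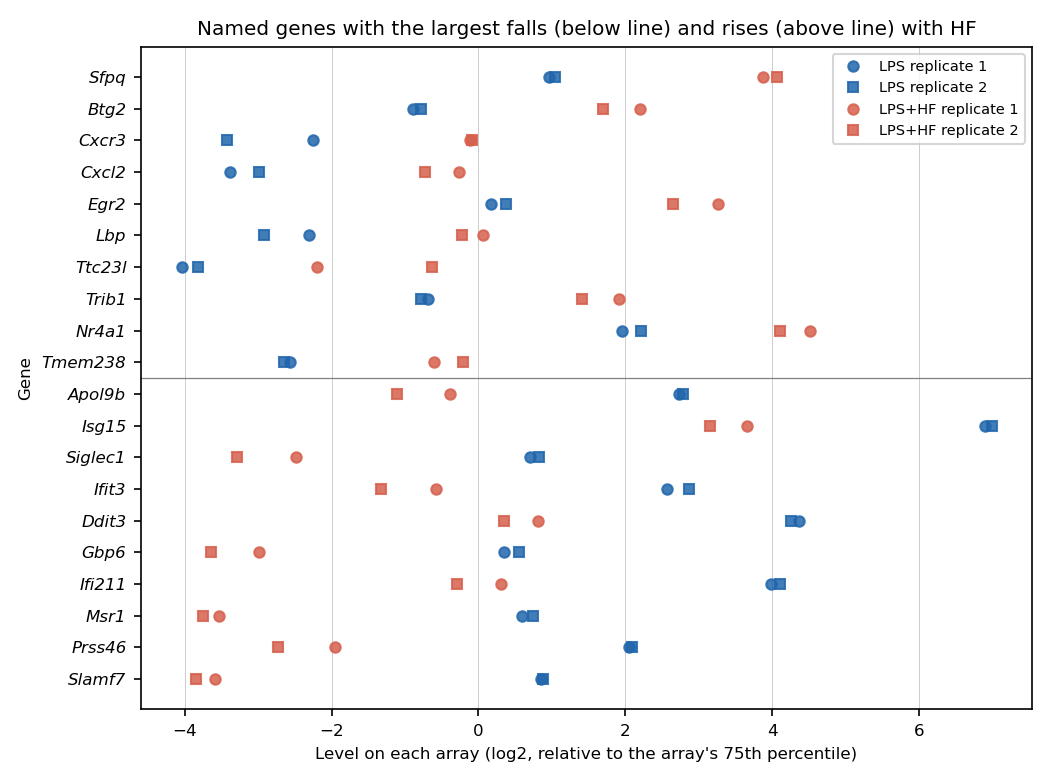
Level of each of 20 named genes on each of the 4 arrays, on the log2 scale relative to the array's 75th percentile; circles and squares are replicates 1 and 2, blue is LPS and red is LPS+HF. The 10 largest falls lie under the line and the 10 largest rises above it, among genes well above background on all 4 arrays. Only genes whose groups do not overlap and whose symbol is not a clone, locus or predicted-gene name were eligible.

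Receptors, a protease and interferon-stimulated genes were among the 10 genes that fell furthest while above background in both groups. Slamf7, a receptor of the SLAM family on immune cells, stood at 0.85 and 0.89 on the LPS arrays and at -3.58 and -3.85 on the LPS+HF arrays, a difference of -4.58 (SE 0.12, 24.0-fold lower, adjusted p = 0.00303). Msr1, the class A scavenger receptor, went from 0.59 and 0.74 to -3.54 and -3.76. Its difference was -4.31 by that probe and -2.97 by another probe of the gene. In both genes the LPS arrays lay close together and far above both LPS+HF arrays. Prss46, a member of the serine protease family, differed by -4.42 (SE 0.27), Siglec1, the sialic acid-binding receptor sialoadhesin, by -3.65 (SE 0.28), and Apol9b, of the apolipoprotein L family, by -3.51 (SE 0.26). Another probe of Siglec1 gave -1.68. Genes that were above background on both LPS arrays and not well above background on either LPS+HF array have only a bound. There were 255 such genes among those that passed as lower. These 255 entered the test through the LPS arrays only, so the filter largely set their direction. Ifi209, of the PYHIN family, was at least 34.0-fold lower by the probe used, with fitted differences from -5.21 to -3.95 over its 3 probes. Macc1 was at least 6.69-fold lower, Bsph2 at least 4.20-fold, Awat1 at least 4.10-fold and Stab2, a scavenger receptor, at least 3.95-fold. Awat1 did not pass with the spread pooled over 8 arrays (adjusted p = 0.466).

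The interferon-stimulated genes fell together. Of 56 antiviral genes listed, 49 were bright enough to be tested, and 39 passed as lower (79.6%), 0 as higher and 10 not at all. Their median difference was -1.54, against -0.07 over all genes, and -1.52 with the 2 genes that have only a bound set to it. With the spread pooled over 8 arrays 26 of the 49 passed, against 3.48% lower over all genes, and 28 passed without LPS replicate 1, against 2.70%. Isg15, the ubiquitin-like protein that is attached to other proteins in the antiviral state, stood at 6.90 and 6.99 with LPS and at 3.66 and 3.16 with LPS+HF, a difference of -3.53 (SE 0.19, adjusted p = 0.00438). Ifit3, which binds in a complex with other IFIT proteins that sense viral RNA, went from 2.56 and 2.87 to -0.58 and -1.33, a difference of -3.67 (SE 0.28). The groups lay far apart in both genes, and the LPS+HF arrays differed more between themselves than the LPS arrays did. Oasl2, of the oligoadenylate synthetase family, was 5.09 and 5.15 with LPS and 1.92 and 1.50 with LPS+HF, 10.7-fold lower. Rsad2, which encodes the antiviral protein viperin and was chosen after its values were seen, differed by -2.35 (SE 0.18). Zbp1, a sensor of left-handed nucleic acid, differed by -2.49 by the probe used and by -3.71 by another.

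Promoter windows are shown for 3 of the genes that fell, because the ISRE is the element through which STAT2, IRF9 and related factors act. They are RefSeq windows of 300 bases on build GRCm38.p6, from 250 bases before to 50 after the start site, written 5′ to 3′ on the gene's strand. Capitals mark each match, on either strand, to 2 GAAA half-sites with any 2 bases between them.
Isg15, minus strand, chr4:156200769-156201068: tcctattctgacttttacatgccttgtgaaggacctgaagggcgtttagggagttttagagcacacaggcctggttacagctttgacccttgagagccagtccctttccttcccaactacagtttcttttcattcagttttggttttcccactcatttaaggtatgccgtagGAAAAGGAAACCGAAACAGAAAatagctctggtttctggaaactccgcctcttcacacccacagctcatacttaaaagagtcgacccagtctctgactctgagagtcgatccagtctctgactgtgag
Ifit3, plus strand, chr19:34583279-34583578: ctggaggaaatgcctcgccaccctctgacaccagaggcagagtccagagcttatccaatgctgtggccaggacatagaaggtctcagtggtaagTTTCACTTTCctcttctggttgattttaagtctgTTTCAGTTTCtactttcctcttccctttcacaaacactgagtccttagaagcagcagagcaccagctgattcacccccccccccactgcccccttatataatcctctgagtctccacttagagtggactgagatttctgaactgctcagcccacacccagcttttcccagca
Gbp2, plus strand, chr3:142620413-142620712: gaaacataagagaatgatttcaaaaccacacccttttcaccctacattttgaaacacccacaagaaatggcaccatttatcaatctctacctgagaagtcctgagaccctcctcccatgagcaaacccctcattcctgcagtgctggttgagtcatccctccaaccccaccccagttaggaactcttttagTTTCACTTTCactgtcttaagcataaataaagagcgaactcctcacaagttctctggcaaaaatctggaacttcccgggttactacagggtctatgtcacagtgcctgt

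The window of Isg15 held 3 overlapping matches, which begin 78, 72 and 66 bases before the start site and so form a single run of capitals. Ifit3 had 2 separate matches and Gbp2 had 1. In the antiviral list, 43.9% of the 41 genes with a window had a match, against 3.88% of the 10842 tested genes with a window and 3.44% of all 32851 windows. In the list of interferon-induced GTPases it was 90.0% of 10 genes. A gene counts as having a match when any of its windows has one. A match describes letters and not a bound site.

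Interferon-induced GTPases, which coat and break the vacuoles of intracellular microbes, passed as lower in 12 of 15 tested and as higher in 0. The shares over all genes were 19.0% and 17.3%. The list's median was -0.996, and -1.09 without LPS replicate 1 and -0.93 without LPS replicate 2. With the spread pooled over 8 arrays 6 passed as lower, beside 3.48% over all genes. Gbp2 stood at 3.85 and 3.96 with LPS and at 1.50 and 0.70 with LPS+HF, a difference of -2.80 (SE 0.28, 6.99-fold lower). Gbp3 differed by -2.70 (SE 0.18) and Gbp7 by -2.45 (SE 0.17). Gbp6 had the largest difference of the list at -3.76, but another probe of the gene gave -0.69, so its size is uncertain. The PYHIN proteins, nuclear and cytosolic DNA sensors, were lower in 5 of 7 tested and higher in 1, beside the same shares of all genes. Their median was -1.15, and -1.19 without LPS replicate 1 and -1.11 without LPS replicate 2. Ifi211 went from 3.98 and 4.11 to 0.30 and -0.30, and Ifi204 from 5.77 and 5.82 to 4.15 and 3.82. Members of both families resemble each other in sequence, and cross-hybridisation between them was not tested.

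The genes that carry the interferon signal did not move as a block. Of 22 tested, 5 passed as lower and 5 as higher, 22.7% each, near the 19.0% and 17.3% over all genes. The median of -0.08 turned to 0.07 under median scaling. With either LPS array left out 2 passed as lower and 0 as higher. Those that fell include Irf7, the factor that amplifies interferon production, at 4.52 and 4.52 with LPS and 1.85 and 1.49 with LPS+HF (difference -2.85, SE 0.14). Usp18, which removes Isg15 from proteins and restrains the receptor, fell by 2.22 (SE 0.14). Stat2 and Irf9, partners in the factor that binds the ISRE, had differences of -1.40 (SE 0.27) and -1.03 (SE 0.11). Neither passed with the spread pooled over 8 arrays (adjusted p = 0.0575 and 0.377). Irf1 and Stat3, both chosen after their values were seen, differed by 0.03 (SE 0.08) and -0.01 (SE 0.13), and each changed sign under another scaling. Another probe of Stat3 gave -0.70. Peptide loading by MHC class I, which interferon raises, was lower in 12 of 19 tested and higher in 0, with a median of -0.48. Tap1, a subunit of the peptide transporter, stood at 2.85 and 2.67 with LPS and 1.43 and 1.31 with LPS+HF. H2-T23, a non-classical class I chain, differed by -0.90 and Tap2 by -0.82. Only 6 of these 19 passed as lower under median scaling, 1 without LPS replicate 1, 2 without LPS replicate 2 and 6 without LPS+HF replicate 2. Class II genes had 2 of 8 higher and 2 of 8 lower, 25% each, beside 17.3% and 19.0% over all genes, with a median of -0.03. With 8 arrays 0 passed in limma, with 2 higher and 1 lower at an unadjusted p under 0.05. Among the class II genes Cd74, the invariant chain, was 0.66 higher.

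**Figure D2:**
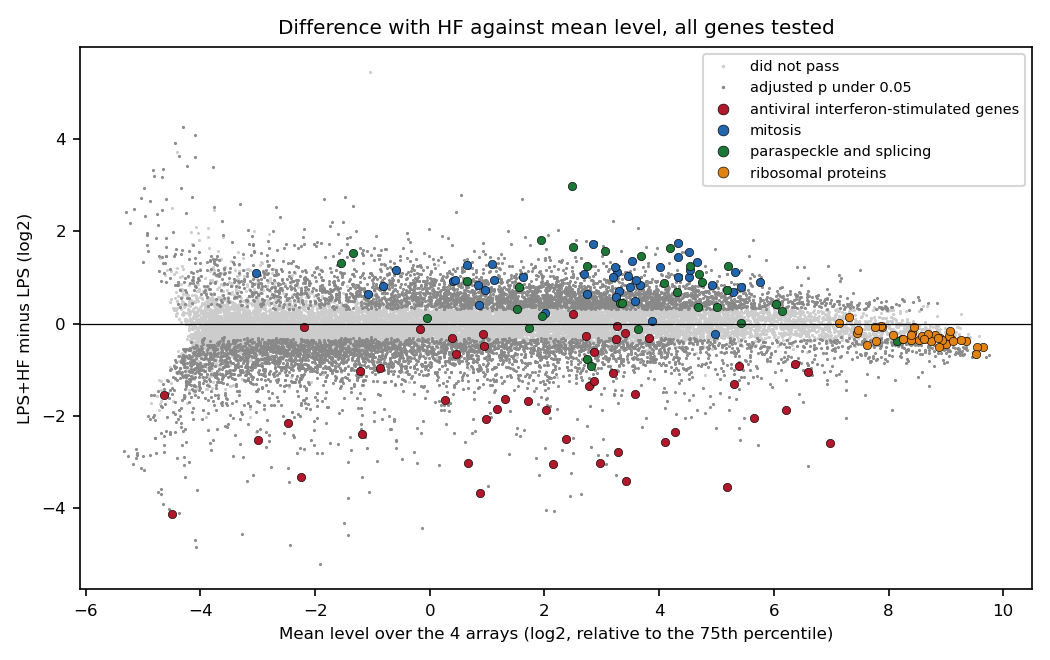
Difference with HF (LPS+HF minus LPS, log2) against the mean level over the 4 arrays for all 21855 genes tested, with genes that passed in dark grey. The antiviral interferon-stimulated genes (red) lie mostly under 0, with a median of -1.54, the mitosis genes (blue) above it, with a median of 0.95, as do the paraspeckle and splicing genes (green), with a median of 0.72, and the ribosomal protein genes (orange) close to it at the highest levels.

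Cytokine genes split. Of 29 listed, 17 were tested, and 6 passed as higher and 6 as lower, beside 17.3% and 19.0% over all genes. Their median of -0.08 turned to 0.07 under median scaling, and without LPS replicate 1 only 1 passed as higher and 5 as lower. Il6 stood at 1.16 and 1.40 on the LPS arrays and at -1.55 and -1.90 on the LPS+HF arrays, a difference of -3.01 (SE 0.16, 8.05-fold lower, adjusted p = 0.00438). Il1b, the precursor of interleukin 1 beta, went from 1.76 and 2.17 to -0.31 and -0.43 (difference -2.33, SE 0.16), and Il1a from 0.97 and 1.26 to 0.02 and -0.27 (difference -1.23, SE 0.16). The receptor antagonist Il1rn, which blocks both, also passed and fell by 2.98 (SE 0.11). Tnf, which encodes tumour necrosis factor, moved the other way. It stood at 3.15 and 3.05 with LPS and at 4.32 and 4.33 with LPS+HF, a difference of 1.23 (SE 0.09, 2.34-fold higher, adjusted p = 0.00531). The groups did not overlap in these 5 genes, as in all 7938 genes that passed. Il1a did not pass with the spread pooled over 8 arrays (adjusted p = 0.0959), and the other 4 did.

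Chemokine genes split as well, with 4 of 11 CC chemokines higher and 4 lower, beside 17.3% and 19.0% over all genes. The median was 0.10, and 0.14 without LPS replicate 1. With the spread pooled over 8 arrays 2 were higher and 4 lower, beside 3.18% and 3.48% over all genes. Ccl5, a T cell attractant, went from 8.08 and 8.20 to 5.48 and 4.63 (difference -3.09, SE 0.30), and Ccl12 from 1.05 and 1.16 to -1.51 and -1.83 (difference -2.78, SE 0.14). Ccl9 differed by -2.05 (SE 0.09), and Ccl8, below background with LPS+HF, was at least 2.52-fold lower. The monocyte attractants Ccl2 and Ccl7, chosen after their values were seen, were higher by 0.58 (SE 0.10) and 1.08 (SE 0.16), while Ccl3 and Ccl4, likewise chosen, differed by -0.08 (SE 0.10) and 0.10 (SE 0.09). Ccl2 did not pass with the spread pooled over 8 arrays (adjusted p = 0.344), and Ccl3 changed sign under 3 other scalings. Of the CXC chemokines, Cxcl10, induced by interferon, stood at 5.49 and 5.66 with LPS and at 3.56 and 3.54 with LPS+HF. Cxcl9, of the same kind, was at least 2.27-fold lower. Cxcl2, a neutrophil attractant and NF-kB target, rose from -3.38 and -2.99 to -0.26 and -0.73, a difference of 2.69 (SE 0.22, 6.46-fold). Cxcr3, the receptor for Cxcl9 and Cxcl10, went from -2.25 and -3.43 to -0.12 and -0.09 (difference 2.74, SE 0.40), with the LPS arrays well apart, and it did not pass with 8 arrays (adjusted p = 0.0712).

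Of the genes of the LPS receptor and its adaptors, 5 of 22 were higher (22.7%) and 3 lower (13.6%), beside 17.3% and 19.0% over all genes, and the median was 0.25. Without LPS replicate 1 only 1 was higher and 0 lower, and without LPS replicate 2 it was 3 and 0. Lbp, the serum protein that hands LPS to CD14, went from -2.31 and -2.93 to 0.06 and -0.22 (difference 2.54, SE 0.24, 5.81-fold higher). Cd14 itself was lower, at 5.12 and 5.26 against 4.35 and 4.18 (difference -0.92, SE 0.11). Tlr4, chosen after its values were seen, differed by 0.06 (SE 0.10) with overlapping arrays, 0.20 and 0.27 against 0.37 and 0.23. The kinase Irak1 and the ubiquitin ligase Traf6, which act after MyD88, were 1.00 and 0.83 higher; of 3 Irak1 probes the smallest difference was 0.40. Among 20 genes of NF-kB and its inhibitors, 5 were higher and 4 lower, shares near those of all genes, and 1 and 1 with either LPS array left out. Their median of -0.02 turned to 0.13 under median scaling. Nfkbia, which encodes the inhibitor IkB-alpha and is itself an NF-kB target, stood at 5.72 and 5.88 with LPS and 7.09 and 6.95 with LPS+HF (difference 1.22, SE 0.11). Bcl3 and Traf1, also known NF-kB targets, differed by -1.33 and -1.29, and Bcl3 did not pass with 8 arrays (adjusted p = 0.0826). Tlr2, another Toll-like receptor, was 0.64 higher. The phosphatases that end MAP kinase signalling differed in direction: Dusp1 was 0.87 higher and Dusp4 differed by -1.79.

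**Figure D3:**
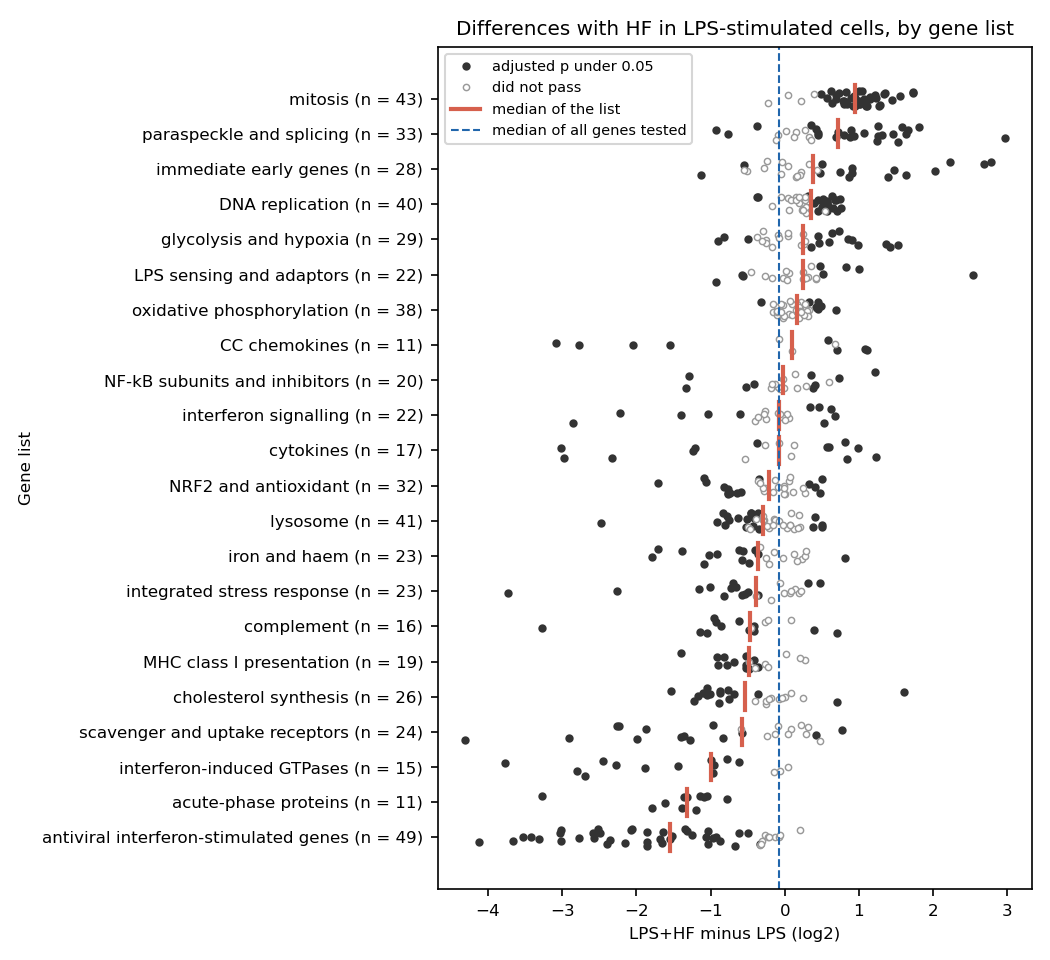
Difference with HF for each tested member of 22 gene lists, sorted by list median. Filled points passed an adjusted p of 0.05, open points did not; the red bar is the list's median and the dashed line the median of all genes, -0.07. List medians run from -1.54 for the antiviral interferon-stimulated genes to 0.95 for mitosis.

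Secreted acute-phase proteins, which macrophages and liver release in inflammation, were lower in 11 of 11 tested and higher in 0, beside 19.0% and 17.3% over all genes. Their median was -1.32, and -1.3 without LPS replicate 1 and -1.34 without LPS replicate 2. Of 16 listed, 5 were too dim to be tested. With the spread pooled over 8 arrays 7 were lower, beside 3.48% over all genes. Cfb, complement factor B, stood at 4.91 and 4.86 with LPS and at 1.99 and 1.24 with LPS+HF (difference -3.27, SE 0.26, 9.68-fold lower). Lcn2, lipocalin 2, which withholds iron from bacteria, went from 6.66 and 6.64 to 5.47 and 5.07. Cp, the copper oxidase ceruloplasmin, differed by -1.79 (SE 0.25) and Hp, haptoglobin, by -1.09 (SE 0.12). Saa3, a serum amyloid chosen after its values were seen, stood at 9.35 and 9.40 against 8.22 and 7.83. The LPS arrays lay closer together than the LPS+HF arrays in each of these genes, and the groups did not overlap, as in every gene that passed. Complement genes were lower in 10 of 16 tested and higher in 2, beside 19.0% and 17.3% over all genes. Their median was -0.47, and -0.51 without LPS replicate 1 and -0.44 without LPS replicate 2. With 8 arrays 3 were lower, beside 3.48% over all genes. C3, the central component, differed by -1.04 (SE 0.18) and C5ar2, a receptor for C5a, by -1.14 (SE 0.09).

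Receptors for uptake were lower in 12 of 24 tested and higher in 2, beside 19.0% and 17.3% over all genes. The median was -0.58, and -0.52 without LPS replicate 1 and -0.63 without LPS replicate 2. With 8 arrays 7 were lower, beside 3.48% over all genes. Besides Msr1 and Stab2, Clec4n, the fungal receptor Dectin-2, went from 3.29 and 3.33 to 0.41 and 0.39 (difference -2.91, SE 0.08). Clec4e, the glycolipid receptor Mincle, went from 6.47 and 6.57 to 4.46 and 4.07 (difference -2.26, SE 0.16). Co-stimulatory molecules differed in direction, with Cd274, the inhibitory ligand PD-L1, at -2.05 (SE 0.20) and Cd83 at 1.12 (SE 0.09). Cd83 did not pass with 8 arrays (adjusted p = 0.361).

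Enzymes that make inflammatory mediators gave mixed values. Nos2, the inducible nitric oxide synthase, stood at 4.67 and 4.88 with LPS and at 3.59 and 3.17 with LPS+HF, a difference of -1.39 (SE 0.18, 2.63-fold lower, adjusted p = 0.0103). Ass1, which recycles citrulline to arginine, differed by -1.19 (SE 0.10). Acod1, the enzyme that makes itaconate, stood at 7.90 and 8.07 against 6.59 and 6.51 (difference -1.43, SE 0.10). Ptgs2, the inducible cyclooxygenase, overlapped between the groups, at 0.63 and 0.92 against 0.87 and 0.54, and its difference was -0.06 (SE 0.17, adjusted p = 0.777). Of the phagocyte oxidase, Cybb, the catalytic subunit, differed by -0.54 (SE 0.11). Cybb did not pass with 8 arrays (adjusted p = 0.158).

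The integrated stress response, in which phosphorylated eIF2-alpha favours translation of ATF4, was lower in 12 of 23 tested and higher in 2. The shares over all genes were 19.0% and 17.3%. The list's median was -0.39, and -0.37 without LPS replicate 1 and -0.44 without LPS replicate 2. With 8 arrays 4 were lower, beside 3.48% over all genes. Ddit3, the ATF4 target that encodes CHOP, stood at 4.36 and 4.26 with LPS and at 0.82 and 0.34 with LPS+HF, a difference of -3.73 (SE 0.18, 13.3-fold lower, adjusted p = 0.00438). Trib3, a pseudokinase induced by ATF4 and CHOP, went from 6.13 and 6.11 to 3.94 and 3.78 (difference -2.26, SE 0.10). Atf3 differed by -1.15 (SE 0.13) and Nupr1 by -1.01 (SE 0.15). Atf4 itself, chosen after its values were seen, was at 8.50 and 8.59 against 7.86 and 7.83, and did not pass with 8 arrays (adjusted p = 0.189). Of the members of this list with a RefSeq window, 22.7% of 22 held TGATGNAA, a form of the amino acid response element (AARE) that ATF4 and C/EBP proteins bind, against 3.02% of tested genes. The window of Trib3 is shown as the example, with its match on the other strand in capitals, 14 bases after the start site.
Trib3, minus strand, chr2:152344011-152344310: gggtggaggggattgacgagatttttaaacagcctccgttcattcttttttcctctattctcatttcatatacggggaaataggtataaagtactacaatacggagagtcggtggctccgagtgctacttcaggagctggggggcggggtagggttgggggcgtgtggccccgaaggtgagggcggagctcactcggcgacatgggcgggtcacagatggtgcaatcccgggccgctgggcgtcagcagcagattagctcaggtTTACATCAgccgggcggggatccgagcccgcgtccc

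Genes of amino acid transport and tRNA charging, many of them ATF4 targets, were higher in 5 of 27 and lower in 7, shares near the 17.3% and 19.0% of all genes. Without LPS replicate 1 it was 1 and 0, and without LPS replicate 2 it was 1 and 1. Of the 20 with a window 40.0% held the same motif. Slc6a9, a glycine transporter, differed by -1.02 and Aars, the alanine tRNA synthetase, by -0.88, while Slc38a2, a neutral amino acid transporter, was 1.20 higher. Of these, only Aars passed with 8 arrays (adjusted p = 0.0245). Of the unfolded protein response, 5 of 26 were lower (19.2%, near the 19.0% of all genes) and 2 higher (7.69%, beside 17.3%). The median was -0.12, and -0.13 and -0.12 without LPS replicate 1 and 2, respectively. With 8 arrays 1 was lower and 1 higher. The chaperone Hspa5 differed by -0.61 (SE 0.09) and the sensor Atf6 was 1.46 higher (SE 0.10). Cytosolic heat shock genes were higher in 7 of 20 and lower in 2, and 1 was higher with either LPS array left out. Among those higher was Dnajb1, an HSP40 co-chaperone, at 3.81 and 3.91 against 4.90 and 4.93.

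Genes of the NRF2 antioxidant response were lower in 11 of 32 tested and higher in 4, beside 19.0% and 17.3% over all genes. The median was -0.21, and -0.24 without LPS replicate 1 and -0.17 without LPS replicate 2. With 8 arrays 5 were lower, beside 3.48% over all genes. Hmox1, haem oxygenase 1, stood at 7.42 and 7.30 with LPS and at 5.84 and 5.47 with LPS+HF, a difference of -1.71 (SE 0.15, 3.26-fold lower). Prdx1, a peroxiredoxin, stood at 8.39 and 8.36 against 7.56 and 7.55, and Gss, glutathione synthetase, differed by -1.07 (SE 0.11). Iron and haem genes, a list that shares Hmox1, Lcn2, Hp and Cp with those above, were lower in 12 of 23 and higher in 1, beside 19.0% and 17.3% over all genes. The median of this list was -0.36, and -0.37 without LPS replicate 1 and -0.32 without LPS replicate 2. With 8 arrays 4 were lower and 1 higher, beside 3.48% and 3.18% over all genes. Sqstm1, an NRF2 target that encodes the autophagy receptor p62, differed by -1.93 (SE 0.09). It did not pass in limma with the spread pooled over 8 arrays, control and HF arrays included (adjusted p = 0.104).

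Cholesterol synthesis was lower in 14 of 26 tested genes and higher in 2, beside 19.0% and 17.3% over all genes. The median was -0.54, and -0.60 without LPS replicate 1 and -0.48 without LPS replicate 2. With 8 arrays 9 were lower, beside 3.48% over all genes. Mvd, which completes the mevalonate pathway, went from 4.02 and 3.95 to 2.46 and 2.45 (difference -1.53, SE 0.08). Fdps, which makes farnesyl diphosphate, went from 6.20 and 6.24 to 5.02 and 5.09, and Lss, lanosterol synthase, from 1.74 and 1.80 to 0.46 and 0.62. The replicate arrays nearly coincided in these genes, and the groups did not overlap, as in every gene that passed. Srebf2, the master transcription factor, chosen after its values were seen, differed by 0.08 (SE 0.17) and did not pass. Its sign turned with the mean over its probes. Lbr, a sterol reductase that also anchors chromatin to the nuclear lamina, was the larger of the 2 rises at 1.60 (SE 0.11). The list's CCAAT share was 94.7% of 19 genes with a window, against 42.6% of tested genes. Acss2, which makes acetyl-CoA from acetate, differed by -1.86 (SE 0.14), while Fasn, fatty acid synthase, was 0.75 higher (SE 0.09). The fatty acid binding proteins Fabp4 and Fabp5 went from 6.50 and 6.51 to 4.83 and 4.10, and from 9.16 and 9.03 to 7.92 and 7.94.

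Lysosomal genes were lower in 16 of 41 and higher in 4, beside 19.0% and 17.3% over all genes, with a median of -0.29. Atp6v0d2, a proton pump subunit, differed by -2.47 (SE 0.30), Psap, prosaposin, by -0.92 (SE 0.09) and the cathepsins Ctsd and Ctsb by -0.83 and -0.81. Of this list 6 passed as lower under median scaling, 4 with 8 arrays and 0 in limma without LPS replicate 1 or without LPS replicate 2, where 13 and 16 were lower at an unadjusted p under 0.05. Without LPS+HF replicate 1 and 2, respectively, 10 and 8 did.

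Mitosis genes rose together. Of 43 listed and tested, 39 passed as higher (90.7%), 0 as lower, and the median was 0.95. With the spread pooled over 8 arrays 16 passed as higher, against 3.18% over all genes, and 21 did without LPS replicate 1, against 2.24%. Ccnb2, cyclin B2, stood at 3.51 and 3.43 with LPS and at 5.24 and 5.17 with LPS+HF, a difference of 1.73 (SE 0.09, 3.32-fold higher, adjusted p = 0.00438). Kif20a, a kinesin of the central spindle, went from 1.87 and 2.11 to 3.75 and 3.68, and Cdc20, an activator of the anaphase-promoting complex, from 3.77 and 3.73 to 5.25 and 5.35. Ube2c, the ubiquitin-conjugating enzyme of that complex, was 1.44 higher (SE 0.08). The groups were separate in each, as in every gene that passed, with replicates close together. Mki67, the proliferation antigen chosen after its values were seen, was 1.12 higher (SE 0.10) and did not pass with 8 arrays (adjusted p = 0.0823). Cdk1, likewise chosen, was 0.70 higher by the probe used and -0.18 by the lowest of its 3 probes. Genes of DNA replication were higher in 21 of 40 and lower in 2, beside 17.3% and 19.0% over all genes, with a smaller median of 0.36 and none at 2-fold or more. Without LPS replicate 1, and likewise without LPS replicate 2, 0 passed in limma, with 18 and 16 higher at an unadjusted p under 0.05, and without LPS+HF replicate 2 11 passed. Rrm2, a subunit of ribonucleotide reductase, was 0.75 higher (SE 0.12). Only 2 replication genes passed with 8 arrays. Cdkn1a, the inhibitor p21, was chosen after its values were seen and did not pass (difference -0.23, SE 0.08, adjusted p = 0.0891), while Trp53 was 1.52 higher (SE 0.13).

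Promoters of mitosis genes commonly hold the cell cycle homology region (CHR), which the DREAM and B-MYB complexes use. TTTGAA, searched on both strands, was found for 74.3% of 35 mitosis genes with a window, against 15% of the tested genes. CCAAT was found for 74.3% of them too, against 42.6%. The windows of Ccnb2 and Cdc20 are shown with each TTTGAA in capitals. That of Ccnb2 had 2 matches, 167 bases before and 4 bases after the start site, and that of Cdc20 had 1, 18 bases before it.
Ccnb2, minus strand, chr9:70421505-70421804: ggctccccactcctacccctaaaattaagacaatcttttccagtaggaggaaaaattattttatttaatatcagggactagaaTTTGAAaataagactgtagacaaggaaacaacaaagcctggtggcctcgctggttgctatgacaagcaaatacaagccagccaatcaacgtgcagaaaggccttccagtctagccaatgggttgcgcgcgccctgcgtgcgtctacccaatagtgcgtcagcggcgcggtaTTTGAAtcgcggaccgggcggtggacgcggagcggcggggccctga
Cdc20, minus strand, chr4:118437294-118437593: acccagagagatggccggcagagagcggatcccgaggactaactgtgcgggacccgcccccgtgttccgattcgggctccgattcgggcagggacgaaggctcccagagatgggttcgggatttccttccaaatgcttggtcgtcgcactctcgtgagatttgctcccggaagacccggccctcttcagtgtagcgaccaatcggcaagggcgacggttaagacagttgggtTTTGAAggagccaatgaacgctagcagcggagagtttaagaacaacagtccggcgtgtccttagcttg

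Genes of RNA splicing and of the paraspeckle, a nuclear body built on the long RNA Neat1, were higher in 22 of 33 tested and lower in 3. The shares over all genes were 17.3% and 19.0%. The list's median was 0.72. Sfpq, a splicing factor and core paraspeckle protein, stood at 0.96 and 1.04 with LPS and at 3.88 and 4.06 with LPS+HF. Its difference of 2.97 (SE 0.10, 7.84-fold, adjusted p = 0.00345) was the largest rise among the named genes measured in both groups, and another probe gave 1.48. The SR proteins Srsf6, Srsf1 and Srsf5, which bind exons and promote their use, were higher by 1.80 (SE 0.11), 1.66 (SE 0.12) and 1.64 (SE 0.11). Neat1 itself, chosen after its values were seen, was lower, at 3.21 and 3.33 against 2.16 and 2.54 (difference -0.92, SE 0.16). With 8 arrays 12 of the 33 passed, and without LPS replicate 1 11 did, all as higher. Ribosomal protein genes, the brightest list, were lower in 17 of 35 with a median of -0.31, but this median turned to 0.02 under quantile normalization and to 0.03 after normexp correction, with 1 gene lower in each. No ribosomal protein gene passed without LPS replicate 1, without LPS replicate 2 or with 8 arrays in limma, with 7, 12 and 3 lower at an unadjusted p under 0.05; 1 passed without LPS+HF replicate 1 and 5 without LPS+HF replicate 2. Actb and Gapdh, often used as reference genes, differed by -0.33 (SE 0.10, adjusted p = 0.06) and -0.17 (SE 0.08, adjusted p = 0.17), and both turned positive under quantile normalization.

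Immediate early genes, transcription factors and signalling genes switched on within minutes of a stimulus, were higher in 13 of 28 and lower in 2, 24 h after treatment began. The shares over all genes were 17.3% and 19.0%. The list's median was 0.38, and 0.37 without LPS replicate 1 and 0.40 without LPS replicate 2. With the spread pooled over 8 arrays 7 were higher, beside 3.18% over all genes. Egr2 stood at 0.17 and 0.37 with LPS and at 3.27 and 2.65 with LPS+HF (difference 2.69, SE 0.23), Nr4a1, an orphan nuclear receptor, at 1.95 and 2.22 against 4.51 and 4.10, and Fos, a subunit of AP-1, at 1.32 and 1.12 against 3.56 and 2.95. Btg2, an antiproliferative gene also known as a p53 target, had a difference of 2.78 (SE 0.19, 6.88-fold higher). All 4 were separate between the groups, as was every gene that passed, with replicate 1 the higher of the LPS+HF arrays. Trib1, a pseudokinase related to Trib3, was 2.40 higher (SE 0.19) and did not pass with 8 arrays (adjusted p = 0.129). Tmem238 and Ttc23l completed the 10 largest rises at 2.20 (SE 0.16) and 2.52 (SE 0.54). The Ttc23l arrays with LPS+HF lay far apart, at -2.20 and -0.63.

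There were 117 genes that passed as higher and were not well above background on either LPS array. They entered the test through the LPS+HF arrays only, so the filter largely set their direction. Itln1, an intelectin that binds microbial sugars, was at least 4.49-fold higher, Slc44a5 at least 4.05-fold, Aldh1a3, a retinal dehydrogenase, at least 3.72-fold, Cyp2b23 at least 3.23-fold and Ttc9b at least 3.22-fold. None of these 5 passed with the spread pooled over 8 arrays (adjusted p from 0.0507 to 0.204).

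Glycolysis and hypoxia genes were higher in 12 of 29 and lower in 3, beside 17.3% and 19.0% over all genes. The median was 0.25, and 0.32 without LPS replicate 1 and 0.19 without LPS replicate 2. With 8 arrays 6 were higher and 1 lower, beside 3.18% and 3.48% over all genes. Egln1, the oxygen-sensing prolyl hydroxylase, stood at -1.96 and -1.94 with LPS and at -0.48 and -0.35 with LPS+HF (difference 1.53, SE 0.09). Pfkl, the liver form of phosphofructokinase, was 1.42 higher (SE 0.10) and Pdk1, which inhibits pyruvate dehydrogenase, 1.37 (SE 0.09). Bnip3, a mitophagy receptor, went from 4.75 and 4.72 to 6.61 and 6.46. The core hypoxia response motif ACGTG stood in a window of 77.8% of the 27 genes with one, against 28.0% of tested genes. Nuclear genes of oxidative phosphorylation were higher in 7 of 38, a share near the 17.3% of all genes, and lower in 1, and none was 2-fold or more. None passed in limma with 8 arrays or with either LPS array left out, with 4, 6 and 6 higher at an unadjusted p under 0.05. Ndufs1, of complex I, was 0.69 higher and did not pass with 8 arrays (adjusted p = 0.179).

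Of the genes of homeostatic microglia, 2 of 18 were higher and 4 lower, beside 17.3% and 19.0% over all genes. Cx3cr1, the fractalkine receptor, was not above background on the LPS arrays (-4.35 and -4.31) and was above it with LPS+HF (-2.54 and -2.61), at least 3.06-fold higher. P2ry12, the purine receptor of resting microglia, went the other way and was at least 1.86-fold lower. Siglech differed by -0.71 (SE 0.10). Igf1, a growth factor made by microglia and macrophages, was 5.46 and 5.48 with LPS and 3.60 and 3.25 with LPS+HF by the probe used (difference -2.04), and the 4 probes ranged up to -0.36. Arg1, arginase 1, was low in both groups, above background on 1 of the 2 LPS+HF arrays, and differed by -1.97 (SE 0.46).

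Across the genes with a window, motif shares differed between the sets of called genes. ISRE was found for 21.3% of the 108 genes lower by 4-fold or more, for 12.7% of the 417 lower by 2-fold or more and for 2.61% of the 306 higher by 2-fold or more, beside 3.88% of all tested. TGANTCA, the AP-1 motif, was found for 25.0%, 13.9% and 5.88% of the same sets, beside 6.67%. AARE was found for 9.26%, 8.15% and 2.61%, beside 3.02%. CHR was found for 20.6% of the genes higher by 2-fold or more and for 20.4% of those lower by 4-fold or more, beside 15%. The sets include genes below background on some arrays, whose fitted folds are not measured sizes. Of the 190 genes lower by 4-fold or more, 112 were above background on all 4 arrays, and of the 48 higher, 19 were. These shares describe the windows and carry no test.

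**Figure D4:**
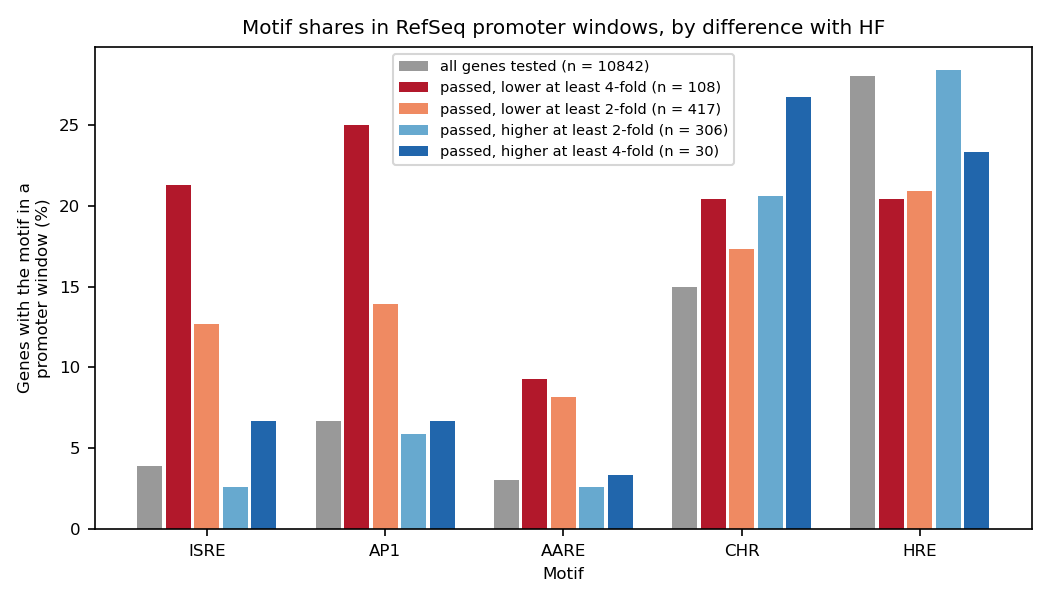
Share of genes (%) with each motif in any RefSeq promoter window of 300 bases, for all tested genes (grey) and for genes that passed and were lower (red) or higher (blue) by at least 2-fold or 4-fold. The ISRE and AP1 bars of the genes lower by at least 4-fold, 21.3% and 25.0%, stand above those of all tested genes, 3.88% and 6.67%. The sets include genes below background on some arrays, whose fitted folds are not measured sizes.

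The control and HF arrays place these levels beside cells without LPS. Control replicate 1 and HF replicate 1 were marked for evaluation by the scanner's quality report, with coefficients of variation of repeated probes of 48.9% and 8.06% against 3.77% to 4.59% on the other 6. Isg15 was at 4.23 and 3.47 in control cells and 1.07 and 1.06 with HF alone, so that LPS+HF, at 3.66 and 3.16, lay in and near the control range. Il6 was at -6.12 and -6.36 in control cells and at -6.31 and -6.68 with HF alone, and LPS+HF lay between these and LPS. Ddit3 was at 0.91 and 0.49 in control cells and Hmox1 at 5.47 and 5.61, and the LPS+HF arrays (0.82 and 0.34, and 5.84 and 5.47) overlapped those. Ccnb2 was at 4.07 and 4.91 in control cells and 4.89 and 5.21 with HF alone, and both LPS arrays lay below all of these. Tnf was at 0.43 and 0.44 in control cells and 0.44 and 0.45 with HF alone. Whether the difference with HF depended on LPS was tested as an interaction over all 8 arrays, in which 12 of 22460 genes passed (0.0534%), 3 positive and 9 negative. Of the genes in this paragraph none passed it, with adjusted p from 0.0705 for Ddit3 to 0.549 for Isg15.

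**Figure D5:**
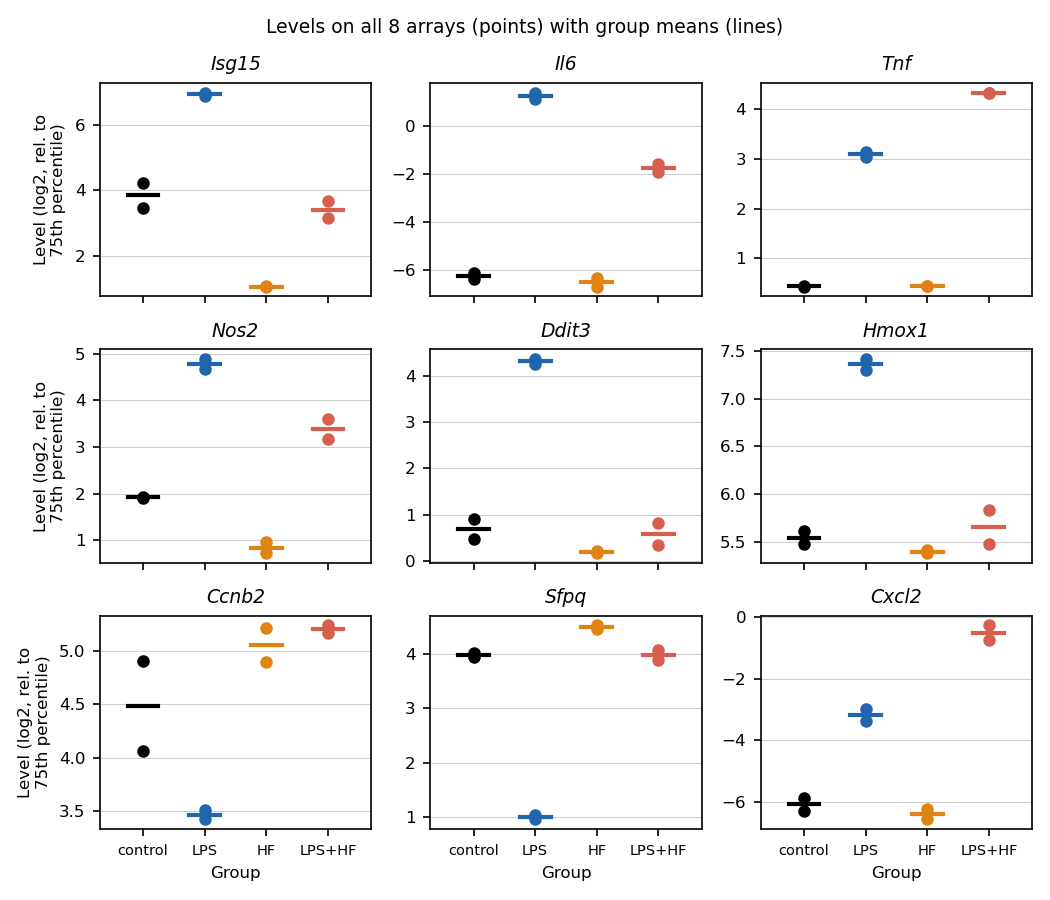
Level of 9 genes on all 8 arrays (points) with the mean of each group (line), on the log2 scale relative to the 75th percentile; each panel has its own axis. LPS+HF lies below LPS for Isg15, Il6, Nos2, Ddit3 and Hmox1 and above it for Tnf, Ccnb2, Sfpq and Cxcl2.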

How the data were processed

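BV-2 messenger RNA was measured on 8 single-colour arrays, all on 1 slide scanned together. The deposited intensity values are, per the file headers, processed signals that Agilent Feature Extraction (version 11.5.1.1) had background-subtracted without between-array scaling. The authors' deposited matrix holds log2 values; used as an alternative, these matched those recomputed from the signals (correlation 1 on every array). Its 75th-percentile shift and centring on each probe's median were found by recomputing them.

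Signals were taken to log2, averaged over unmarked spots of a probe, and the 75th percentile of each array was subtracted. Probes well above background on both arrays of the LPS or the LPS+HF group were kept (29423), and each gene was represented by its kept probe with the highest mean, which gave 21855 genes, 13536 of them with a symbol. Of 55681 probes, 28026 (50.3%) were given a symbol through RefSeq and Ensembl names (21154 genes); others keep the array's name. LPS+HF minus LPS was fitted on the 4 arrays with limma 3.58.1 in R 4.3.3 (2 residual and 2.5 prior degrees of freedom), two-sided, with Benjamini-Hochberg adjustment over all genes and a threshold of 0.05. The interaction of LPS and HF used all 8 arrays and 22460 genes. Fits were tested on simulated data.

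Where all probes of a gene were below background in a group, the fold is "at least", taken against the lowest signal among probes above background on those arrays, or the measured signal where higher. Such a gene entered the test through the other group only. The number of arrays limits the precision.

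The comparison, the gene lists and the rule for named genes were chosen with earlier results of these data known. The rule names, among genes that passed with arrays that do not overlap and an approved-style symbol, the 10 largest rises and falls above background on all 4 arrays and the 5 largest bounds on each side. It adds up to 4 passed members per list, always Nos2, Tnf, Il6, Il1b, Ptgs2, Hmox1, Actb and Gapdh, and the 5 largest interaction genes per side. Genes outside it are said to be chosen after their values were seen. Some genes are not reported here. The alternatives were quantile, median and normexp (offset 50, on median signals) processing, the authors' matrix, other filters on dim probes, the mean over probes, each probe, a trended variance, a 2-fold threshold, the spread over 8 arrays, the replicate number as a block and leaving out arrays. Promoters came from RefSeq (GRCm38.p6), and motifs were searched on both strands. Tables were made in Python 3.11.15 (pandas 2.3.3, numpy 2.4.6) and plots with matplotlib 3.10.9.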

Additional observations from a re-analysis of the deposited data

Results flagged for a closer look

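For 6 named genes the difference with HF with LPS and that without it passed a test of their difference, the interaction term of limma over all 8 arrays (adjusted p = 0.0378 for Olfr1317 and 0.0419 to 0.0425 for the others). The values are the difference with HF under LPS minus that without LPS. AA467197, Gm5086 and AK028718 also passed and were above background in every group, with -4.59, 2.44 and -2.43. Their clone or predicted-gene names kept them out of the naming rule. AA467197 stood at -3.57 and -3.59 in control cells, 4.18 and 4.21 with LPS, -3.13 and -2.94 with HF and 0.51 and -0.21 with both. Sfpq, the splicing factor, had an interaction of 2.46: it stood at 4.01 and 3.94 in control cells, 0.96 and 1.04 with LPS, 4.46 and 4.52 with HF and 3.88 and 4.06 with both. Cx3cr1, the fractalkine receptor, had 2.98, from -2.12 and -1.92 in control cells, -4.35 and -4.31 with LPS, -3.33 and -3.17 with HF and -2.54 and -2.61 with both; its LPS arrays were not well above background, so this value is not a measured size. The other 4 genes were well above background in 1 group only, through which they entered the test, so their interaction values rest on signals below background in 3 of 4 groups and are not measured sizes. Slfn4, a schlafen gene induced by interferon, had a fitted value of -3.53, and stood at -2.44 and -2.42 with LPS alone and between -6.64 and -5.78 on the other 6 arrays. Mirt2, a long RNA, had -4.02, and stood at -2.67 and -2.41 with LPS alone and between -6.78 and -6.24 elsewhere. Olfr1317, an olfactory receptor gene, had -4.56 and stood at -1.89 and -2.17 with HF alone and between -6.79 and -6.33 elsewhere. Cfap206, a cilium gene, had -3.47 and stood at -3.24 and -2.98 with HF alone and between -6.68 and -6.29 elsewhere. Control replicate 1 and HF replicate 1, which carry the scanner's quality mark, enter each of these values, and the count of genes that pass depends on the setting, as given below.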

How the results depend on the processing

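Of 205 named genes that passed, the number that still passed was 199 under quantile normalization, 197 under median scaling, 201 after normexp, 205 in the authors' matrix, 127 with the spread pooled over 8 arrays, 34 at a 2-fold threshold, 103 without LPS replicate 1, 120 without LPS replicate 2, 194 without LPS+HF replicate 1 and 195 without LPS+HF replicate 2. Without the filter on dim probes 0 passed in limma, with 10250 of all genes at an unadjusted p under 0.05. Genes higher and lower numbered 694 and 760 with 8 arrays, 0 and 0 without the filter and 18 and 109 at a 2-fold threshold; median scaling gave 2433 lower. Leaving out each array gave 489 to 2553 higher and 590 to 3320 lower. The causes were not tested, beyond the fewer arrays or larger pooled spread in the fits that have them. Interaction genes numbered 5 under quantile normalization and 0 each under median scaling, normexp, no filter, brightness on every array, trended variance, a 2-fold threshold and the replicate block, with 1433 to 2650 genes at an unadjusted p under 0.05 in these except the 2-fold threshold, which had 230. Leaving out 1 array gave 0 to 7923, the most without control replicate 2, and leaving out both quality-marked arrays gave 34.

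The log2 difference changed sign under quantile normalization and normexp for Actb (0.0388 and 0.0243), Gapdh (0.249 and 0.210), Ccl3 (0.0338 and 0.0726), Irf1 (-0.0453 and -0.0046), Rpl35 (0.0876 and 0.0581), Rplp0 (0.0767 and 0.108) and the median of the ribosomal proteins (0.0222 and 0.0255). Normexp also turned Srebf2 (-0.0049) and the median of the TCA cycle list (-0.0051), and the mean over probes turned Gapdh (0.221) and Srebf2 (-0.242). Median scaling turned Ccl3 (0.0756), Ptgs2 (0.0895), Stat3 (0.139) and the medians of interferon signalling (0.0741), NADPH oxidase (0.0168), the unfolded protein response (0.0332), amino acid transport with tRNA synthetases (0.0277) and TNF receptors (0.0138). It also turned 5 list medians that lay within the spread of the array pairs, those of cytokines (0.0729), NF-kB subunits and inhibitors (0.132), MHC class II (0.123), autophagy (0.150) and the actin cytoskeleton (0.146), and 7 such medians turned under some setting. Requiring brightness on every array turned the CXC chemokine median (0.123). Leaving out single arrays, signs turned for Ptgs2 (-0.228 to 0.101), Srebf2 (-0.104 to 0.270), Stat3 (-0.167 to 0.139), Tlr4 (-0.00999 to 0.134) and the medians of the matrix proteases (-0.365 to 0.0231) and TNF receptors (-0.228 to 0.0223).

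The deviations of same-numbered LPS and LPS+HF arrays had a correlation of 0.0066 over genes, so no shared deviation was seen. Whether same-numbered arrays were prepared together is not stated, and this correlation cannot decide it. With the number as a block, 2867 genes were higher and 3425 lower, and 199 of the 205 named genes still passed.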

Other observations

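Groups of genes that share a name were looked at after the values were seen, so their counts are descriptions. Genes of RNA handling and of the nuclear pore were often higher with HF under LPS. Of 31 tested genes with the prefix Rbm, RNA-binding motif proteins, 17 passed as higher and 1 as lower, with a median of 0.42. Rbm14, a coactivator that is also found in paraspeckles, stood at 3.40 and 3.51 with LPS and at 4.36 and 4.41 with LPS+HF. Of 19 nucleoporins (Nup), 9 passed as higher and 0 as lower, with a median of 0.38. Nup98 went from -0.77 and -0.53 to 0.53 and 0.59. Of 34 Ddx helicases 13 were higher and 1 was lower; of 27 RNA polymerase subunits (Polr) 10 were higher and 1 was lower. Over all genes 17.3% passed as higher.

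C-type lectins (Clec) went the other way, with 8 of 16 lower and 1 higher and a median of -0.55. Clec4b1, a receptor of dendritic and myeloid cells, stood at -0.77 and -0.70 with LPS and at -3.98 and -4.35 with LPS+HF, where 1 of the 2 arrays was above background. Probes for intergenic regions, which carry no gene symbol, passed as lower in 650 of 3029 (21.5%, beside 19.0% over all genes) and as higher in 212 (7.0%, beside 17.3%), with a median of -0.22 against -0.07 over all genes. They are dim as a class, and whether signal close to background moves their median was not tested.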
